A study of Mus musculus with 8 samples.

Results

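The small nucleolar RNAs (snoRNAs) of the mouse testis are described here as they were counted in the small RNA libraries of males kept on a Western-like diet (WD) or a standard diet (SD). Every small RNA that the deposited table gives the type snoRNA was taken, which makes 256 of the 20558 small RNAs listed. Their names place 131 in the C/D class (Snord), 75 in the H/ACA class (Snora) and 10 among the Cajal body RNAs (Scarna), while 17 carry another name such as U3 or snoU97 and 23 could not be matched to the annotation. The study asked which RNAs of the testis differ between fathers on either diet, since testis RNA had been injected into embryos to test whether it passes on metabolic traits. Testis RNA of 8 adult C57Bl/6 males was sequenced, 1 library per mouse. The 4 SD mice are named M1N, M2N, TN1 and TN2, and the 4 WD mice are named M1W, M2W, M3W and M5W. The labels name no transgene or deletion. The diet, high in sucrose and butter, started at 3 weeks of age by the study's text and at 4 weeks by the sample labels, and the males were 4 months old at mating. The labels repeat the high-lipid rearing for all 8 mice, the controls included, so the groups were taken from the control or diet mark in each title.

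A snoRNA works inside a ribonucleoprotein particle and guides the modification of another RNA by base pairing with it. C/D snoRNAs, named after their C and D boxes, direct ribose methylation of ribosomal RNA by fibrillarin, and H/ACA snoRNAs direct pseudouridylation by dyskerin. A few, such as U3, U8, U13 and U14, take part in cutting or folding the ribosomal RNA precursor, and scaRNAs act on spliceosomal snRNAs in Cajal bodies. In mammals most snoRNAs lie in introns and are released from the spliced intron of a host gene, which is often a ribosomal protein gene or a non-coding gene such as Gas5 or Snhg1. Fragments of snoRNAs are known in small RNA libraries of many tissues.

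The authors trimmed reads at the adaptor or at 31 bases. The annotated snoRNAs listed are between 60 and 197 bases long, with a median of 89.0. A read therefore covers only a stretch of a snoRNA, and a count cannot tell a piece cut inside the cell from a piece made during RNA handling. In whole testis, fewer cells of a type and less RNA per cell cannot be told apart either. Counts are given as CPM, counts scaled to the library total and its TMM factor, and 3 counts correspond to between 0.922 and 1.45 CPM depending on the mouse, before that scaling. This floor covers counting error only.

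8 snoRNAs on which the results below turn are printed from the NCBIM37 (mm9) genome, 5′ to 3′ on the RNA strand, with the C box motif and the D box motif in capitals. They are Snord2 and Snord57, which were lower against M1N and M2N, SNORD27, the most abundant of the members higher in WD mice at an edgeR p of at most 0.05 before adjustment, 3 neighbours in Gas5, the member with the largest fold change past a nominal p of 0.05, and Snord61, the reference RNA of the study's RT-PCR.
Snord2: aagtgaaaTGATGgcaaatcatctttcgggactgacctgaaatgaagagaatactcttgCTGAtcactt
Snord57: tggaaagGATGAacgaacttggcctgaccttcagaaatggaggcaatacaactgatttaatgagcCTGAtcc
SNORD27: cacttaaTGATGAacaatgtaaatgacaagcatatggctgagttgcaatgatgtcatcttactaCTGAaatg
SNORD81: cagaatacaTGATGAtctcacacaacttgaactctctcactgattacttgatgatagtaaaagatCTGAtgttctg
SNORD74: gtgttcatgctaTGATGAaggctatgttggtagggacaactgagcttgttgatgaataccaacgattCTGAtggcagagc
SNORD44: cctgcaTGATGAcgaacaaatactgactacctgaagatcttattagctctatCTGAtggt
Snord72: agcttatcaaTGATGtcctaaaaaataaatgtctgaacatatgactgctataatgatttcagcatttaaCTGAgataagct
Snord61: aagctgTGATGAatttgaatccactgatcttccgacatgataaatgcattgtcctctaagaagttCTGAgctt
Snord2 lies at chr16:23109026-23109094 on the plus strand, in Eif4a2. Snord57 lies at chr2:130103752-130103823 on the plus strand, in Nop56. SNORD27 lies at chr19:8799021-8799092 on the plus strand, in Snhg1. The 3 Gas5 members lie on the plus strand of chromosome 1, SNORD74 at chr1:162965525-162965604, SNORD44 at chr1:162966813-162966872 and SNORD81 at chr1:162968439-162968514. Snord72 lies at chr15:5068404-5068484 on the plus strand, in an intron of Rpl37, and Snord61 at chrX:54644626-54644698 on the minus strand, in an intron of Rbmx.

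The box motifs followed the class names in most members. TGATGA, or TGATG or GATGA, which it contains, starting in the first 20 bases together with CTGA in the last 20 bases, searched on the RNA strand, was present in 123 of the 131 C/D members (93.9%) and in 0 of the 75 H/ACA members. The same search found the pair of motifs in 85.8% of all 346 annotated C/D snoRNAs, 0.127% of 1577 annotated miRNAs and 0% of 1423 annotated snRNAs. ACA followed by 3 bases at the end was present in 53 H/ACA members (70.7%), against 24.0% of all 1031 annotated H/ACA snoRNAs, 5.83% of the miRNAs and 0.914% of the snRNAs. These matches describe the letters in the sequence and not the use of a box. Of the 233 members with a position, 201 lay inside a longer gene on the same strand, in 118 host genes, and 51 of them in a host named Rpl or Rps. For 128 the position was intronic in all transcripts of the host annotated, and for 73 it overlapped an exon of at least 1 transcript, as for Snord2 and the Gas5 and Snhg1 members. A gene on the other strand overlapped 12 members, and the sources used here do not say whether counting used the strand.

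C/D snoRNAs gave far more reads than H/ACA snoRNAs. Per length, the median mean level over the 8 mice was 89.1 CPM per kb for C/D members and 7.34 CPM per kb for H/ACA members, with 6.57 CPM per kb for scaRNAs. The highest were Snord2 with 5059 CPM per kb among C/D members and Snora7a, in the ribosomal protein gene Rpl32, with 64.0 CPM per kb among H/ACA members. Without division by length, the medians were closer, at 7.68 CPM for C/D members and 1.06 CPM for H/ACA members. The table lists 131 of the 346 annotated C/D snoRNAs (37.9%) and 75 of the 1031 annotated H/ACA snoRNAs (7.27%), and a small RNA is listed there only with at least 9 counts over the 8 mice. The class motifs were found in 85.8% of the 346 but in only 24.0% of the 1031. These shares therefore have unlike denominators. H/ACA members were longer, with a median of 133 bases against 76.0 for C/D members, and the part of length in the difference between classes was not tested.

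**Figure D1:**
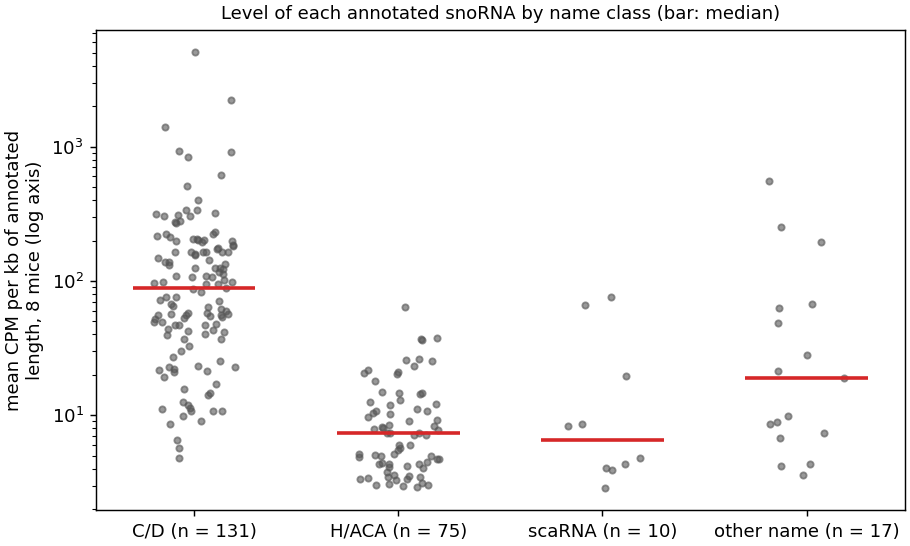
Mean level of each annotated snoRNA over the 8 mice, in CPM per kb of annotated length on a log axis, by the class its name gives. Each point is 1 snoRNA and the red bar is the class median, 89.1 for C/D, 7.34 for H/ACA and 6.57 for scaRNAs, and the most abundant H/ACA member at 64.0 lies under the C/D median.

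Counts per mouse totalled 2064562 to 3253798, of which 4333 to 8223 fell on snoRNAs, and 235 to 250 of the 256 members had a count above 0 in any 1 mouse. The snoRNA share of all counts was 0.244% ± 0.0395 in WD mice and 0.229% ± 0.0179 in SD mice (SD, n = 4 each), so the groups did not separate (p = 0.6 by a two-sided exact permutation test). M2W, with 0.302%, was the highest of the 8 mice, and without it the difference of WD minus SD was -0.0036 percentage points in place of 0.0156. The ratio of C/D to H/ACA counts was 19.0 ± 1.60 in WD mice and 16.9 ± 3.45 in SD mice, and the groups overlapped (exact permutation test of the log2 ratio, two-sided, p = 0.371). The smallest p that 4 mice against 4 can give is 0.0286. The labels give 1 library per mouse, and p-values measure the spread between these mice.

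The defining miRNAs of male germ cells, miR-34c-5p and miR-449a-5p, summed to 7842 to 10732 CPM in SD mice and 7512 to 11713 CPM in WD mice, so the defining markers of the labelled tissue were present. The pair of Sertoli cell miRNAs of the miR-202 hairpin summed to 3609 to 4193 CPM in SD mice and 4187 to 7021 CPM in WD mice, with M2W highest (exact permutation test, two-sided, p = 0.0571). The 3 blood miRNAs listed of 4 summed to 123 to 307 CPM in SD mice and 97.7 to 252 CPM in WD mice, with M1N and M2W highest and miR-451a not listed. The 2 muscle miRNAs listed of 3 summed to 36.7 to 46.3 CPM in SD mice and 26.7 to 51.7 CPM in WD mice, and miR-143-3p, the only one of 2 stromal miRNAs listed, to 165 to 402 CPM and 305 to 610 CPM. The liver miRNA miR-122-5p was at 0 in 6 mice and at 15.4 CPM in TN1 and 13.0 CPM in TN2. The part of these cell types in the snoRNA values was not tested.

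Few snoRNAs held much of the signal. The 10 members with the highest mean level took 35.1% to 54.3% of the snoRNA counts of a mouse, with the highest share in M1N and the lowest in TN2. Snord2, a C/D snoRNA in the gene of the translation initiation factor Eif4a2, ranked highest by mean level. It measured 679.3, 380.1, 307.1 and 196.4 CPM in M1N, M2N, TN1 and TN2, and 266.3, 423.6, 270.5 and 269.4 CPM in M1W, M2W, M3W and M5W. M1N stood far above all other mice, TN2 was the lowest of the 8, and 3 of the 4 WD mice lay within 5 CPM of each other, so that the groups overlapped widely. The log2 fold change of WD over SD was -0.35 (SE 0.293, edgeR's quasi-likelihood test, adjusted p = 0.556). Snord2 made up 24.1% of the snoRNA counts in M1N, 16.3% in M2N, 13.8% in TN1, 9.79% in TN2 and 11.5% to 14.0% in WD mice.

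Snord85, another C/D snoRNA, came next. It measured 223.1, 160.4, 138.6 and 111.6 CPM in the SD mice in the order above, and 126.6, 220.6, 176.5 and 133.1 CPM in the WD mice. The SD mice held the highest and the lowest value, and the log2 fold change was 0.05 (SE 0.225). SNORD27, a methylation guide in the non-coding gene Snhg1, ranked behind it. It measured 54.1, 79.7, 90.1 and 99.6 CPM in SD mice and 89.1, 157.9, 123.9 and 113.2 CPM in WD mice. Only M1W lay inside the range of the SD mice, under TN1 and TN2. The log2 fold change was 0.58 (SE 0.212, unadjusted p = 0.0148, adjusted p = 0.318 by edgeR). It was 0.85 against M1N and M2N alone (adjusted p = 0.0135 by edgeR) and 0.35 against TN1 and TN2 alone (unadjusted p = 0.0862 by edgeR).

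Snord57 lies in Nop56, the gene of a core protein of the C/D particle. It measured 138.8, 91.5, 43.5 and 45.4 CPM in SD mice and 44.4, 77.6, 55.3 and 32.0 CPM in WD mice. M1N and M2N were above all WD mice, while TN1 and TN2 lay among them. WD over SD gave a log2 fold change of -0.62 (SE 0.340, unadjusted p = 0.0861, adjusted p = 0.389 by edgeR), which was -0.22 without M1N and -0.87 without M2W. The other members among the 10 most abundant were snoU97, Snord104, Snord100, SNORD95, snoU6-77 and SNORD25, with log2 fold changes between -0.39 and 0.07 and no nominal p of 0.05 or less.

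**Figure D2:**
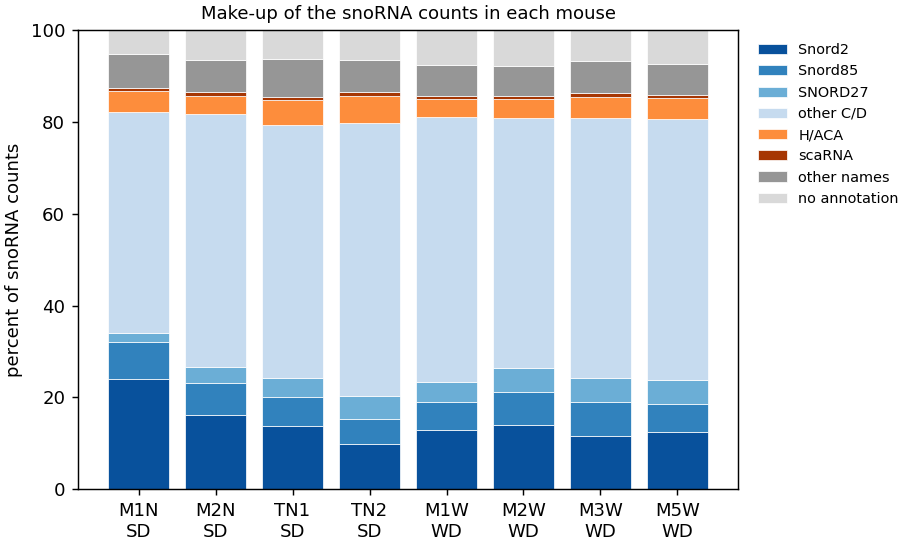
Percent of the snoRNA counts of each mouse (vertical axis) that fell on Snord2, Snord85, SNORD27 and the remaining classes, 1 bar per mouse with the diet under its name. Snord2 takes 24.1% in M1N and 9.79% in TN2, with the WD mice between 11.5% and 14.0%, while H/ACA members take at most 5.91% in any mouse.

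For the diet comparison the counts of all small RNAs were fitted together, WD against SD, and 127 of the 256 snoRNAs passed the filter on low counts: 99 C/D, 7 H/ACA, 2 scaRNAs, 7 with another name and 12 without annotation. At an adjusted p under 0.05 edgeR called 0 snoRNAs, against 0% of the 16955 small RNAs tested, and the smallest adjusted p of a snoRNA was 0.318, a value that many members share because the adjustment ties neighbouring ranks. DESeq2 and limma-voom also called 0. At a nominal p, one not adjusted for the number of tests, of at most 0.05 there were 25 snoRNAs (19.7%), against 14.6% of all small RNAs tested, 22 by DESeq2 (against 12.9% of all small RNAs) and 27 by limma-voom (against 14.8%). Of the 25, 21 were higher in WD mice (16.5% of those tested, against 6.76% of all small RNAs) and 4 were lower (against 7.83% of all small RNAs). The median log2 fold change over the 127 was 0.17, with -0.006 over all small RNAs tested, and without M2W the median over snoRNAs was 0.091. None of the 25 passed the correction over 16955 tests, and each value below carries that limit.

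The balance of higher and lower members depended on the scaling. With TMM factors computed among the snoRNAs alone, the median over all small RNAs moved to -0.125 and that over snoRNAs to 0.043, and 16 snoRNAs (12.6%) had a nominal p of at most 0.05, against 15.1% of all small RNAs. Of these 16, 8 were higher (6.3% of the snoRNAs tested, against 1.79% of all small RNAs) and 8 lower (also 6.3%, against 13.3%), in place of 21 and 4. Without M2W, 22 of 132 snoRNAs had such a p (against 15.1% of all small RNAs), 16 of them among the 25, and 14 of the 22 were higher (against 7.13%). Without M5W, 16 of 129 had such a p (against 7.49%), all 16 among the 25, and 15 were higher (against 3.49%). Over the alternative fits, which reuse most of the same mice, a nominal p of at most 0.05 was reached in 8 of 19 fits for SNORD20 of Ncl, in 9 of 19 for Snord34 and for the SNORD58 copy in Rpl17, and in all that tested them for Snord90, SNORD63 and Snord72.

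Every WD mouse lay above every SD mouse for 12 of the 127 snoRNAs, against 3.01% of all small RNAs, and below for 1, Snord15a, against 2.68% (5.69% in both directions). The 12 were SNORD81, SNORD74 and Snord47 of Gas5, Snord71, the SNORD24 copy in Rpl7a, Snord98, Snord37, Snord90, SNORD63, Snord72, snoZ39 and FR168150. Snord37 lies in the gene of the elongation factor Eef2 and Snord98 in Ccar1.

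Snord72 had the largest fold change of these. It lies in an intron of Rpl37, which encodes a protein of the large ribosomal subunit, and it measured 1.71, 3.83, 2.21 and 3.24 CPM in SD mice and 7.23, 6.14, 5.07 and 7.47 CPM in WD mice. The lowest WD mouse was above the highest SD mouse. edgeR gave a log2 fold change of 1.25 (SE 0.329, unadjusted p = 0.00168, adjusted p = 0.318 by edgeR), on a mean of 12.8 counts per mouse.

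SNORD63, in an intron of the mitochondrial chaperone gene Hspa9, measured 5.14, 2.55, 6.62 and 6.02 CPM in SD mice and 10.2, 8.33, 9.22 and 13.4 CPM in WD mice. The groups did not overlap, and M2N was the lowest mouse. The log2 fold change was 1.04 (SE 0.304, unadjusted p = 0.00370, adjusted p = 0.318 by edgeR). Snord90, in the gene of the RNA-binding protein Rc3h2, measured 5.48, 5.74, 4.41 and 9.26 CPM in SD mice and 12.8, 10.5, 9.68 and 9.64 CPM in WD mice. TN2 came within 0.5 CPM of M5W, and the other 3 SD mice were well below. Its log2 fold change was 0.81 (SE 0.272, unadjusted p = 0.0091, adjusted p = 0.318 by edgeR).

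Snord71, in the clathrin adaptor gene Ap1g1, was a more abundant member of the set. It measured 16.5, 19.8, 21.1 and 18.5 CPM in SD mice and 27.3, 36.0, 27.6 and 24.9 CPM in WD mice. All 4 WD mice lay above TN1, the highest SD mouse. WD over SD gave a log2 fold change of 0.60 (SE 0.193, unadjusted p = 0.00692, adjusted p = 0.318 by edgeR).

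Snord15a, in the ribosomal protein gene Rps3, was lower in WD mice. It measured 12.3, 8.93, 6.93 and 11.1 CPM in SD mice and 5.92, 6.58, 5.99 and 5.91 CPM in WD mice. The 4 WD mice were close together under the lowest SD mouse. edgeR gave a log2 fold change of -0.68 (SE 0.262, unadjusted p = 0.0206, adjusted p = 0.318 by edgeR), while Snord15b of the same host gene had 0.10 (SE 0.228). The other members lower at a nominal p of at most 0.05 were SNORD44 in Gas5, Snord99 in Snhg12 (-0.70, SE 0.318) and the U3 copy on chromosome 11.

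**Figure D3:**
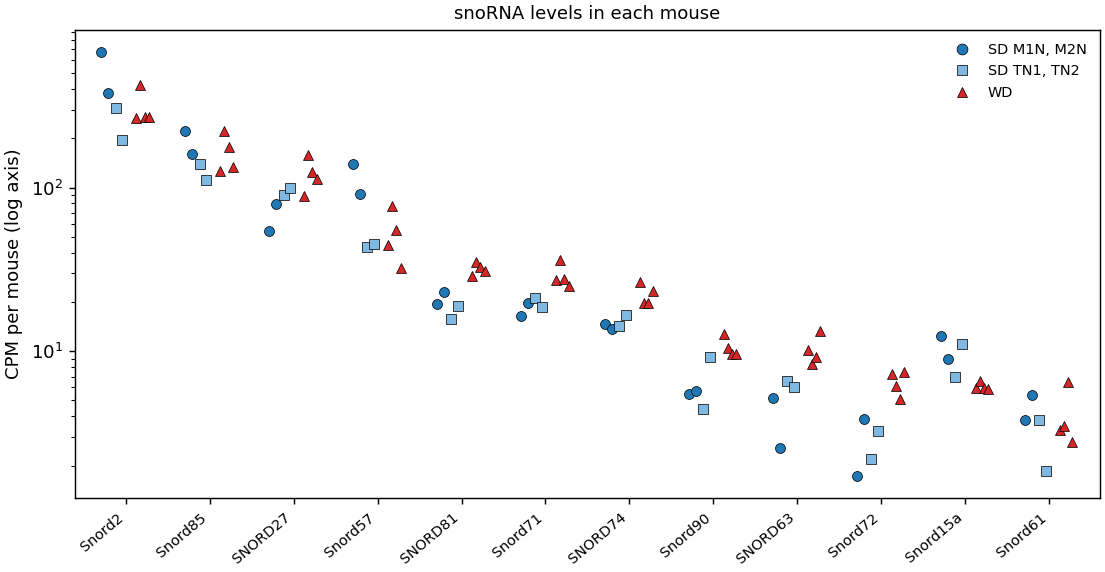
Level of 12 snoRNAs in each of the 8 mice, in CPM on a log axis, with SD mice as blue circles (M1N, M2N) and light blue squares (TN1, TN2) and WD mice as red triangles. For Snord2 and Snord57 the circles lie above the squares, and for SNORD81, Snord71, SNORD74, Snord90, SNORD63 and Snord72 all triangles lie above all SD mice, by log2 fold changes of 0.60 to 1.25.

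Gas5, a non-coding gene whose introns carry many snoRNAs, held members with fold changes of either sign. Of 7 listed members of the Gas5 list, 6 were tested, and at a nominal p of at most 0.05 3 were higher and 1 was lower, against 6.76% and 7.83% of all small RNAs tested. SNORD81, a guide for the large subunit rRNA, measured 19.5, 23.0, 15.8 and 19.0 CPM in SD mice and 28.9, 35.1, 32.7 and 31.1 CPM in WD mice. Every WD mouse lay above M2N, the highest SD mouse. In the fit, the fold change on the log2 scale was 0.72 (SE 0.187, unadjusted p = 0.00148, adjusted p = 0.318 by edgeR), with 0.58 against M1N and M2N alone and 0.89 against TN1 and TN2 alone.

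SNORD74 measured 14.7, 13.7, 14.2 and 16.7 CPM in SD mice and 26.6, 19.7, 19.8 and 23.3 CPM in WD mice. It did not overlap between the groups either, with a log2 fold change of 0.61 (SE 0.197, unadjusted p = 0.00756, adjusted p = 0.318 by edgeR). Snord47 measured 7.20, 7.33, 12.9 and 13.9 CPM in SD mice and 15.4, 15.3, 14.7 and 14.9 CPM in WD mice. Here TN1 and TN2 came close to the WD mice and the distance rested on M1N and M2N, with log2 fold changes of 1.05 against that pair and 0.18 against TN1 and TN2.

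SNORD44, a guide for the small subunit rRNA, measured 14.7, 12.4, 15.1 and 15.7 CPM in SD mice and 8.55, 14.0, 5.53 and 8.09 CPM in WD mice. M2W lay among the SD mice and the other 3 WD mice were below them all. WD over SD gave a log2 fold change of -0.68 (SE 0.263, unadjusted p = 0.0204, adjusted p = 0.318 by edgeR). Over the alternative fits it ran from -0.94 to -0.29, with a nominal p of at most 0.05 in 14 of 19. SNORD75 had 0.17 (SE 0.190) and SNORD77 0.03 (SE 0.348), while SNORD78 was too low to be tested. A SNORD24 copy in Gas5, outside the list, had -0.08 (SE 0.349). The count ratio of SNORD81 to SNORD44, which no library scaling touches, was 1.04 to 1.85 in SD mice and 2.5 to 5.92 in WD mice. Both were picked for their difference, so the ratio is a description without a test.

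Snhg1, the other multi-snoRNA host, had 9 listed members of its list and 7 tested, where 1 of the 9 is a SNORD26 copy elsewhere in the genome. SNORD27, higher, was the only one of the 7 at a nominal p of at most 0.05, against 6.76% of all small RNAs tested. SNORD25 measured 36.7, 31.2, 34.3 and 27.3 CPM in SD mice and 32.5, 44.7, 30.9 and 28.6 CPM in WD mice. Its groups overlapped almost fully, with a log2 fold change of 0.07 (SE 0.192), and the fold changes of the 7 ran from -0.40 for SNORD31 to 0.58 for SNORD27. The ratio of SNORD27 to SNORD25 counts was 1.48 in M1N, 2.55 in M2N, 2.62 in TN1, 3.64 in TN2 and 2.74 to 4.01 in WD mice, so the groups overlapped.

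**Figure D4:**
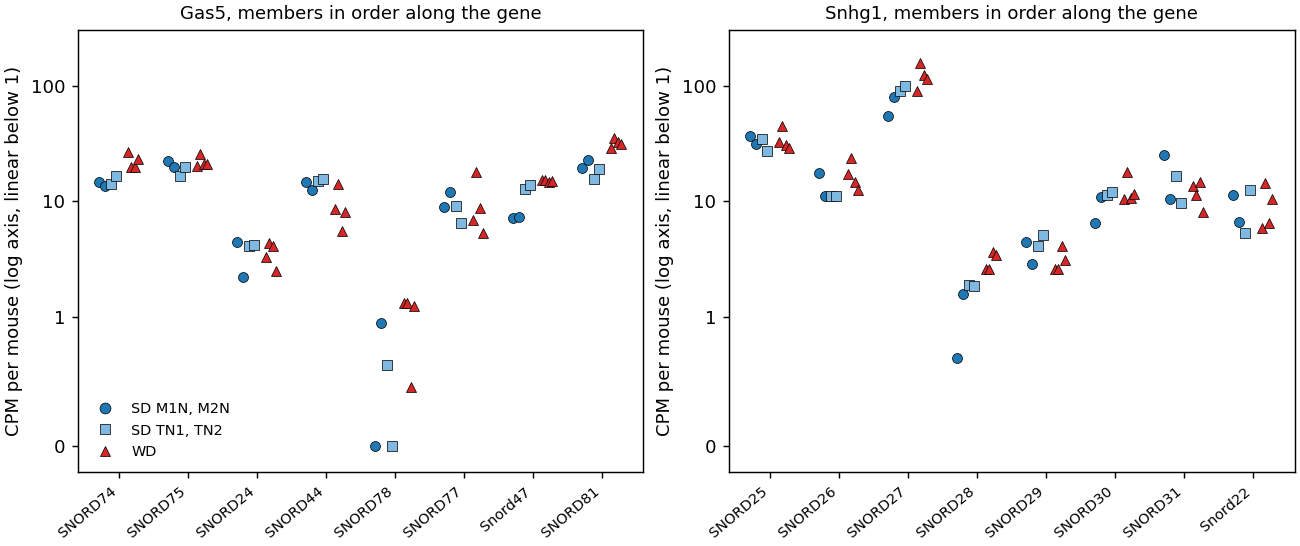
Level in each mouse, in CPM on an axis that is logarithmic above 1 and linear below, of the snoRNAs listed in Gas5 and in Snhg1, ordered along the chromosome. In Gas5 the WD triangles lie above the SD mice for SNORD74, Snord47 and SNORD81 and mostly below for SNORD44, and in Snhg1 the 7 tested members span log2 fold changes from -0.40 to 0.58.

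Among the snoRNAs that act in ribosomal RNA processing, 13 members were listed and 5 were tested. All 5 had a log2 fold change under 0, as had 41 of the 127 snoRNAs tested. The median of the 5 was -0.40, against 0.17 over the 127. Of the 5, 1 had a nominal p of at most 0.05, lower, against 7.83% of all small RNAs tested. Snord118, the U8 RNA needed to make the large subunit rRNAs, measured 30.8, 16.3, 32.4 and 28.3 CPM in SD mice and 19.4, 17.98, 24.9 and 19.3 CPM in WD mice. M2N lay below all WD mice and the other 3 SD mice above them. The log2 fold change was -0.40 (SE 0.230, unadjusted p = 0.0986, adjusted p = 0.403 by edgeR), and -0.59 against TN1 and TN2 alone.

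The U3 copy on chromosome 11, an RNA of the first cuts toward the small subunit, measured 6.17, 2.55, 4.41 and 6.95 CPM in SD mice and 2.30, 4.39, 1.38 and 1.24 CPM in WD mice. M2N and M2W broke the order of the groups. In the fit, the fold change on the log2 scale was -1.10 (SE 0.441, unadjusted p = 0.0246, adjusted p = 0.322 by edgeR) on a mean of 9.88 counts per mouse. Over the alternative fits that tested this copy it ran from -1.54 to -0.39, with a nominal p of at most 0.05 in 10 of 18. The other 3 copies of U3 listed were too low to be tested, and how reads matching several copies were counted is not given in the sources used here. The U14 snoRNAs Snord14c and Snord14d of Hspa8, whose counts were similar in every mouse and whose reads may be shared, had -0.41 and -0.36. Snord13, the U13 RNA, had -0.17. Of the 5 tested, Snord14d had 0.06 against M1N and M2N alone, and the other 4 stayed under 0 in each fit that tested them.

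Several snoRNAs commonly used as references in RT-PCR were listed: 9 members, 8 of them tested, 3 higher at a nominal p of at most 0.05 and 0 lower, against 6.76% and 7.83% of all small RNAs tested. Snord61 measured 3.77, 5.42, 3.78 and 1.85 CPM in SD mice and 3.29, 3.51, 6.45 and 2.80 CPM in WD mice. The groups overlapped and the log2 fold change was 0.03 (SE 0.385, adjusted p = 0.973 by edgeR), on a mean of 10.6 counts per mouse. That SE leaves room for a change in either direction, and the low count limits what the library says of it. Snord68, in Rpl13, measured 10.3, 11.5, 14.8 and 19.9 CPM in SD mice and 20.1, 22.8, 19.8 and 22.1 CPM in WD mice. M3W lay just under TN2, and the distance was mostly to M1N and M2N (0.96 against that pair, 0.31 against TN1 and TN2). Snord72 is given above, and Snord70 of Nop58 had 0.86 (SE 0.397). SNORD95, the most abundant of the list, had -0.04 (SE 0.226), and Snord65, Snord96a and Snord95 had -0.15, -0.11 and 0.32.

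The Rpl13a snoRNAs, whose release has been linked to lipotoxic stress, were listed 4 of 4, with 3 tested. Snord34 had a log2 fold change of 0.61 (SE 0.273, unadjusted p = 0.0408, adjusted p = 0.334 by edgeR), Snord32a -0.18 (SE 0.197) and Snord35a 0.49 (SE 0.339). Snord34 measured 9.25, 10.8, 8.82 and 6.95 CPM in SD mice and 10.8, 20.6, 15.2 and 9.64 CPM in WD mice, with M5W and M1W inside or at the edge of the SD range, and without M2W its log2 fold change was 0.38. Of the snoRNAs linked to cholesterol or lipid handling, which also hold SNORD60 and SNORA73, 5 were listed, 3 were tested and 0 had a nominal p of at most 0.05 by edgeR, against 14.6% of all small RNAs tested. SNORD60 measured 13.7, 12.1, 14.2 and 12.0 CPM in SD mice and 14.8, 18.9, 12.9 and 15.6 CPM in WD mice, a log2 fold change of 0.25 (SE 0.208).

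Few imprinted snoRNAs, which are abundant in brain, were listed. A small RNA is listed only with at least 9 counts, and how reads matching several copies were counted is not given. A snoRNA missing from the table is therefore not shown to be missing from the testis. The Snrpn region gave Snord64 alone, at 0 to 1.58 CPM, and the Dlk1-Dio3 region gave SNORD113 alone, at 0 to 1.03 CPM, both too low to be tested. Of the 10 scaRNAs listed, 2 were tested, Scarna17 with -0.48 (SE 0.359) and Scarna9 with 0.27 (SE 0.325). The 7 H/ACA members tested had fold changes between -0.67 and 0.36, with 0 at a nominal p of at most 0.05 by edgeR. Snora7a, the most abundant, measured 9.25, 5.10, 7.25 and 9.73 CPM in SD mice and 4.93, 13.2, 11.1 and 11.2 CPM in WD mice, with M1W the lowest of all 8. Its log2 fold change was 0.36 (SE 0.315). Among C/D members 21 of 99 had a nominal p of at most 0.05, against 14.6% of all small RNAs tested, 18 of them higher (against 6.76%) and 3 lower (against 7.83%). The median was 2.88 counts per mouse for H/ACA members and 21.3 for C/D members, and 7 of the 75 H/ACA members passed the filter.

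The result depended on which SD mice were used. M1N and M2N are named with the letter of the WD mice, and TN1 and TN2 with other letters that the study's text does not explain. Against M1N and M2N alone, 13 of 138 snoRNAs tested (9.42%) had an adjusted p under 0.05 by edgeR, against 20.8% of all small RNAs. Of the 138, 34 had a nominal p of at most 0.05, 27 of them higher, against 35.5% of all small RNAs in both directions, 17.6% higher and 17.9% lower. Against TN1 and TN2 alone, 0 of 133 were called at an adjusted p under 0.05, against 0.134% of all small RNAs, and 19 (14.3%) had a nominal p of at most 0.05, against 3.79%, with 14 of them higher (10.5%, against 2.13%) and 5 lower (against 1.65%).

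Of the 13 adjusted calls against M1N and M2N, 11 were higher in WD mice and 2 were lower, Snord2 and Snord57. Snord4a, in the ribosomal protein gene Rpl23a, had the largest log2 fold change, 2.14 (adjusted p = 0.00259 by edgeR). It measured 3.77, 1.91, 9.77 and 10.2 CPM in SD mice and 8.22, 11.8, 10.1 and 19.3 CPM in WD mice. TN1 and TN2 lay among the WD mice, and the log2 fold change against them was 0.33 (unadjusted p = 0.320). The SNORD24 copy in Rpl7a measured 9.60, 12.1, 23.3 and 22.2 CPM in SD mice and 28.6, 33.3, 25.3 and 27.4 CPM in WD mice. The fold change on the log2 scale was 1.39 against M1N and M2N (adjusted p = 0.0015 by edgeR) and 0.33 against TN1 and TN2 (unadjusted p = 0.126).

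Snord57 fell by 1.15 on the log2 scale against M1N and M2N (adjusted p = 0.00398 by edgeR), and had 0.22 against TN1 and TN2. Snord2 fell by 0.78 against M1N and M2N (adjusted p = 0.0188 by edgeR) and had 0.28 against TN1 and TN2. Both signs turned with the pair of SD mice, and the difference between the pairs was not tested. Snord72, SNORD63 and Snord90 were also among the 13, with 1.22, 1.44 and 0.93, and had 1.30, 0.71 and 0.71 against TN1 and TN2, each with a nominal p under 0.05. These comparisons share the WD mice.

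Fold changes were larger in members of low GC content. Among the 115 tested members with a sequence, split into 4 groups by GC content, the group with the lowest, 29.6% to 39.5%, had a median log2 fold change of 0.40, and the next groups had 0.19, 0.07 and 0.05. Of the 30 members in the lowest group, 10 were higher at a nominal p of at most 0.05 and 0 were lower, against 6.76% and 7.83% of all small RNAs tested. Snord72, Snord90, SNORD63, SNORD27, Snord47 and SNORD81 are among them, with GC contents of 29.6% to 35.5%, and 3 of these 6 are among the sequences printed above. Across these members Spearman's rho between GC content and log2 fold change was -0.32, a description over 115 snoRNAs that share the same 8 libraries.

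The medians of the 4 groups were 0.66, 0.08, 0.07 and -0.19 against M1N and M2N, and 0.27, 0.27, 0.16 and 0.11 against TN1 and TN2. With TMM among snoRNAs they were 0.27, 0.06, -0.07 and -0.10. Length moved with the fold change as well, with a rho of -0.19. The part of base composition and length in the diet values was not tested.

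**Figure D5:**
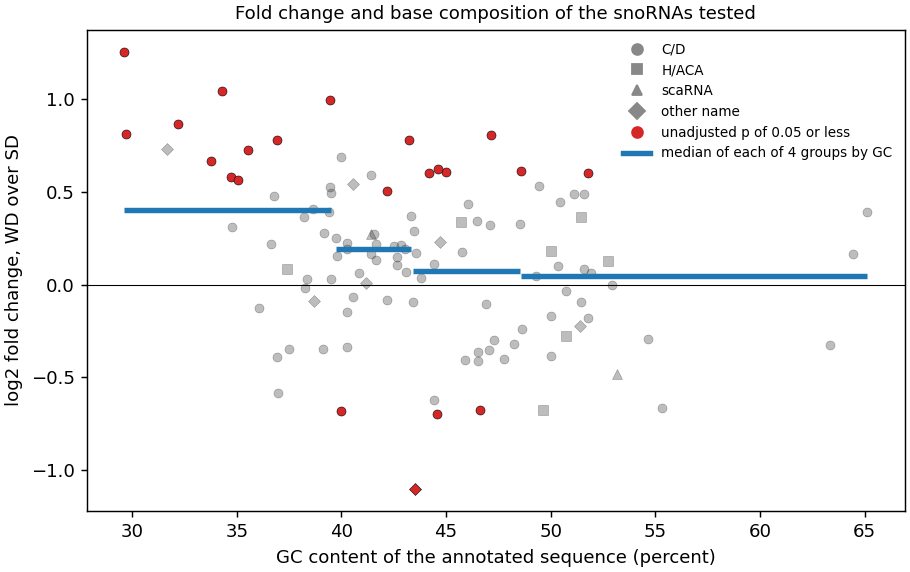
Log2 fold change of WD over SD (vertical axis) against the GC content of the annotated sequence in percent (horizontal axis) for the 115 tested snoRNAs with a sequence, marked by class, in red where the nominal p was 0.05 or less. Blue lines give the median of each of 4 groups by GC content, from 0.40 in the lowest to 0.05 in the highest.

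Some members could not be separated. The 256 entries carry 182 different names, and 32 names belong to several members, 83 in all, while 7 members have a sequence identical to another annotated snoRNA. The SNORD62 copies in Prrc2b and Pip5k1a measured 19.5 and 20.6 CPM in M1N, 16.6 and 15.9 CPM in M2N and 15.3 CPM each in M2W. Their values followed each other through all mice, and their reads may be shared. After copies of each name were summed, 26 of 119 snoRNAs had a nominal p of at most 0.05, against 14.6% of all small RNAs, and 0 an adjusted p under 0.05 by edgeR. The 23 members without annotation took 7.33% of the snoRNA counts in WD mice and 6.11% in SD mice. These groups did not overlap (exact permutation test, two-sided, p = 0.0286, and 0.143 after adjustment over 5 classes). What these 23 entries are is not given in the sources used here.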

How the data were processed

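Testis small RNA of 4 SD and 4 WD mice was sequenced on a SOLiD instrument. Reads were cut by the authors to the insert, or to 31 bases where no adaptor was seen, and mapped to mm9 by Bowtie with up to 2 mismatches. Features came from Rfam, miRBase release 18 and a non-coding RNA database, and the deposited table holds raw counts per small RNA, unnormalised, 1 column per mouse. The submitters' processing notes also name DESeq. Tool versions and the treatment of multiply matching reads are not given in the sources used here.

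The whole table of deposited counts was fitted in R 4.3.3 with edgeR 4.0.16: filterByExpr (minimum count 10, minimum total 15), TMM factors, the quasi-likelihood test, two-sided, diet as the only term, and Benjamini-Hochberg adjustment over 16955 small RNAs. Standard errors were derived from the F statistic. Single values per mouse were compared by exact permutation tests over 70 assignments. DESeq2 1.42.0 and limma 3.58.1 were run as alternatives, and matplotlib 3.10.9 drew the figures. On simulated data for this comparison over 16955 small RNAs, the test recovered 55 of 100 changed 2-fold and 97 of 100 changed 4-fold, with 10 false calls. The simulation gave every small RNA the same dispersion between mice and no difference between the SD pairs. There 5.21% of unchanged small RNAs had a nominal edgeR p of at most 0.05, against 14.6% of all small RNAs in the data. The rates recovered therefore need not hold for these mice. No pair looked like a single library counted again: over snoRNAs the chi-square per degree of freedom was between 1.33 and 10.0. This check cannot find separate libraries made from the same mouse.

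Positions and sequences come from the NCBIM37 genome with GENCODE M1, where 233 of 234 Ensembl identifiers matched and 22 identifiers starting with FR did not. Members and gene lists were chosen with earlier results of these data known. The naming rule took the 10 snoRNAs with the highest mean CPM, the 10 with the smallest p and those whose groups do not overlap. It also took Snord61 and the members of the lists. The rule covers 72 members, 49 of them tested, and the text above names only part of these. SNORD41, among the 10 with the smallest p, had a log2 fold change of 0.81 (SE 0.301, unadjusted p = 0.017, adjusted p = 0.318 by edgeR). Members named outside this rule, among them Snord15b, Snord99, Snord4a and Snora7a, were chosen after their values were seen. The M1 mice of both diets share a number, as do the M2 mice, but they are different animals.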

Additional observations from a re-analysis of the deposited data

Results flagged for a closer look

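In 7 of 102 groups of 4 mice, 1 mouse lay far from the other 3 of its diet by Dixon's 95% criterion (its gap to the nearest mouse over the range of the group), where chance gives about 1 in 20 groups, or 5.1. M2W was that mouse in 5 of them. It measured 423.6 CPM of Snord2, with the other WD mice at 266.3 to 270.5 CPM, 25.9 CPM of SNORD75 against 20.4 to 21.2 CPM, and 27.2 CPM of Snord98, in Ccar1, against 14.6 to 16.6 CPM. It also measured 17.98 CPM of SNORD30 against 10.5 to 11.5 CPM, and 6.58 CPM of Snord15a against 5.91 to 5.99 CPM. The Snord15a value rests on 15 counts in M2W and on 18, 13 and 19 in M1W, M3W and M5W. Counting error alone can give that gap. M1N was that mouse for Snord104, with 89.8 CPM against 56.0 to 61.4 CPM in the other SD mice, and for the SNORD26 copy in Snhg1, with 17.5 CPM against 11.03 to 11.2 CPM. The 102 groups come from the same libraries and are not independent, so the 7 cannot be weighed against the 5.1.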

How the results depend on the processing

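The count of adjusted calls by edgeR, DESeq2 and limma-voom was 0 with all 8 mice, and by edgeR 0 with 1 mouse left out and against TN1 with TN2, 13 against M1N with M2N, and among the M1 and M2 mice 5 with the replicate block (3.94% of snoRNAs tested, against 6.9% of all small RNAs) and 2 with no block (1.57%, against 6.13%), a fit chosen after seeing the data. The deviations of same-numbered mice correlated at -0.0746 and 0.232, so the numbers were not taken to pair the mice. With a nominal p in place of the adjusted one 25 members were called. That count was 16 with TMM within snoRNAs and 16 to 27 when 1 mouse was left out. Of the members at that p, 84.0% were higher in WD, 50.0% with TMM within snoRNAs, 73.7% against TN1 and TN2 and 63.6% without M2W. The median log2 fold change over snoRNAs stayed above 0, from 0.043 to 0.23, with 0.091 without M2W. The difference in snoRNA share, 0.0156 percentage points, ranged from -0.0036 to 0.0259 with 1 mouse left out, and the log2 ratio of C/D to H/ACA, 0.18, was -0.0567 against M1N and M2N, 0.42 against TN1 and TN2 (exact permutation test, two-sided, p = 0.0667, the smallest 4 mice against 2 can give) and 0.081 to 0.30 with 1 mouse left out.

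Over the members that the naming rule covers, 919 comparisons across settings were made. Of these, 776 kept direction and side of the threshold, and 23 gained and 71 lost a nominal p of at most 0.05. The other 49 changed sign, all among 13 members that had not reached that p. Against TN1 and TN2 the log2 fold changes that turned were Snord2 0.28, snoU97 0.26, Snord57 0.22, Snord104 0.092, SNORD95 0.34 and Snord96a 0.076. Against M1N and M2N they were Snord85 -0.23, Snord14d 0.062, SNORD77 -0.16, Scarna9 -0.051 and Snord61 -0.25. With TMM within snoRNAs they were Snord85 -0.10, SNORD25 -0.069, SNORD77 -0.13, Snord22 -0.068 and Snord61 -0.081. With column totals SNORD95 had 0.032, and with limma-voom SNORD77 had -0.12. Among the M1 and M2 mice with the replicate block, and with no block, Snord85 had -0.18 and -0.14, Snord14d 0.080 and 0.10, Scarna9 -0.085 and -0.069, and Snord61 -0.41 and -0.44. With 1 mouse left out in turn, the log2 fold change ranged from -0.57 to 0.058 for Snord2, -0.87 to -0.22 for Snord57, -0.63 to -0.081 for Snord14d, 0.076 to 0.48 for Scarna9, -0.27 to 0.096 for snoU97, -0.31 to 0.078 for Snord104, -0.19 to 0.090 for SNORD95, -0.080 to 0.155 for SNORD25, -0.33 to 0.086 for Snord96a, -0.43 to 0.26 for SNORD77, -0.26 to 0.27 for Snord61, -0.12 to 0.26 for Snord85 and -0.18 to 0.26 for Snord22. The cause was not tested. Depth was low for H/ACA members and scaRNAs, with medians of 2.88 and 2.56 counts per mouse.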
